A study of Mus musculus with 18 samples.

Results

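The genes described here belong to the insulin-like growth factor (IGF) system of the mouse lung: the ligand gene Igf1, the receptor genes Igf1r and Igf2r, and the binding protein genes Igfbp2, Igfbp3, Igfbp4, Igfbp5, Igfbp6 and Igfbp7. A gene on this list was included if at least 1 probe set of the array was annotated to it and to no other gene. All 9 qualified, as 9 of the 12412 genes tested, through 26 of the 45101 probe sets. Of these, 24 passed the filter on dim signals, and the other two, 1 of Igf1r and 1 of Igfbp7, were dim in every group. Each gene is represented by its brightest retained probe set unless stated otherwise.

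IGF1 is a secreted growth factor that acts through the receptor tyrosine kinase encoded by Igf1r, and in tissues it is made by macrophages and mesenchymal cells as well as reaching them from the liver. Igf2r encodes the cation-independent mannose-6-phosphate receptor, which clears IGF2 and carries lysosomal enzymes. The IGF-binding proteins hold IGFs outside the cell, where they extend their life, limit their access to the receptor or, after cleavage by proteases, release them. IGFBP7 binds IGFs only weakly and is best known as a protein of vessel walls and matrix.

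Total RNA of the right lung was measured in 18 samples, 3 in each of 6 groups. The irradiated mice received 18 Gy of caesium-137 gamma rays to the whole thorax at 8 weeks of age, with the rest of the body behind lead, and were killed when moribund, with over 20% of body weight lost. Irradiated A/J mice were 30 to 32 weeks old, irradiated C57BL6/J mice (the labels' spelling of C57BL/6J) 28 to 30 weeks and irradiated C3H/HeJ mice 20 to 22 weeks, and the untreated mice of each strain were 15 to 26 weeks old. The ages place the irradiated mice 22 to 24, 20 to 22 and 12 to 14 weeks after exposure. The strains are inbred and the labels name no added allele, and the titles call irradiated samples sick and untreated samples control. Moribund state, time since exposure and, in A/J and C57BL6/J, age cannot be told apart from irradiation. The labels describe 3 moribund mice for each strain but do not say that the 3 control samples came from separate animals, so p-values may in part measure technical spread.

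Signals below are log2(deposited signal + 7) after quantile normalization, which gives every array the same distribution. A fold on this scale understates the change of a dim gene, and levels are compared only within a probe set. The arrays differed in brightness before normalization, with a trimmed mean signal of 46.3 to 176. Lung identity was clear in all 18, in which Scgb1a1, Sftpc and Ager, the markers of club cells and of both alveolar cell types, ranked no lower than 14 from the top. The control probe sets for actin gave a 5′ over 3′ ratio, which falls as RNA degrades. In irradiated A/J arrays it was 0.413, 0.551 and 0.528, against 0.730 to 0.742 in untreated A/J arrays and 0.677 to 0.766 in the other groups. Irradiated C3H/HeJ array 3 lay at 0.478 on a scale from untreated C3H/HeJ (0) to untreated A/J (1) over 104 probe sets that separate those strains, where irradiated arrays 1 and 2 of the same strain lay at 0.0792 and 0.0682. The C57BL6/J arrays lay at 0.577 to 0.772 on this scale, so a middle position does not single out A/J. The squamous keratin gene Krt4 was high in irradiated A/J array 3 at 10.91, and in untreated C57BL6/J arrays 1 and 3 at 11.52 and 11.75, against at most 6.13 elsewhere.

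Of the 9 genes, 5 changed in irradiated A/J lungs, 3 of them higher and 2 lower, where 24.1% of all genes tested were called in either direction, 15.1% higher and 8.95% lower. A call is an adjusted p under 0.05 in limma after Benjamini-Hochberg adjustment over the 12412 genes. In irradiated C57BL6/J lungs 3 were called, 2 higher and 1 lower, with 5.35% of all genes called, 2.99% higher and 2.36% lower. In irradiated C3H/HeJ lungs 5 were called, 3 higher and 2 lower, with 23.5% of all genes called, 12.8% higher and 10.6% lower. Igf1 and Igfbp7 were called higher in all 3 strains, as were 1.63% of all genes, and Igfbp6 was called lower in all 3, as were 0.967%. Igfbp4 was called higher, and Igfbp3 lower, in A/J and C3H/HeJ, where 6.86% of all genes were called higher in both and 4.34% lower in both. The median change over the 9 genes was 0.02, 0.03 and 0.03 in A/J, C57BL6/J and C3H/HeJ, beside 0.09, -0.01 and 0.01 over all genes.

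The 5 calls in C3H/HeJ held without irradiated C3H/HeJ array 3, with log2 changes of 2.51 for Igf1, 0.48 for Igfbp4, 0.66 for Igfbp7, -1.52 for Igfbp6 and -1.65 for Igfbp3. The 5 calls in A/J held without the 3 keratin-high arrays, with 1.70 for Igf1, 0.76 for Igfbp4, 1.07 for Igfbp7, -0.89 for Igfbp6 and -1.14 for Igfbp3. The C57BL6/J calls did not hold in that fit, which kept 1 untreated C57BL6/J array. Its log2 changes were 1.15 for Igf1, 0.42 for Igfbp7 and -1.01 for Igfbp6, against 1.09, 0.35 and -1.16 with all arrays. All 3 irradiated A/J arrays had the low actin ratio, so no A/J value without them can be had. Array 1 of them had the lowest actin ratio, 0.413, and a Gapdh ratio of 0.294. Without it alone the 5 calls held, with 2.26 for Igf1, 0.74 for Igfbp4, 1.05 for Igfbp7, -1.34 for Igfbp6 and -1.03 for Igfbp3.

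**Figure D1:**
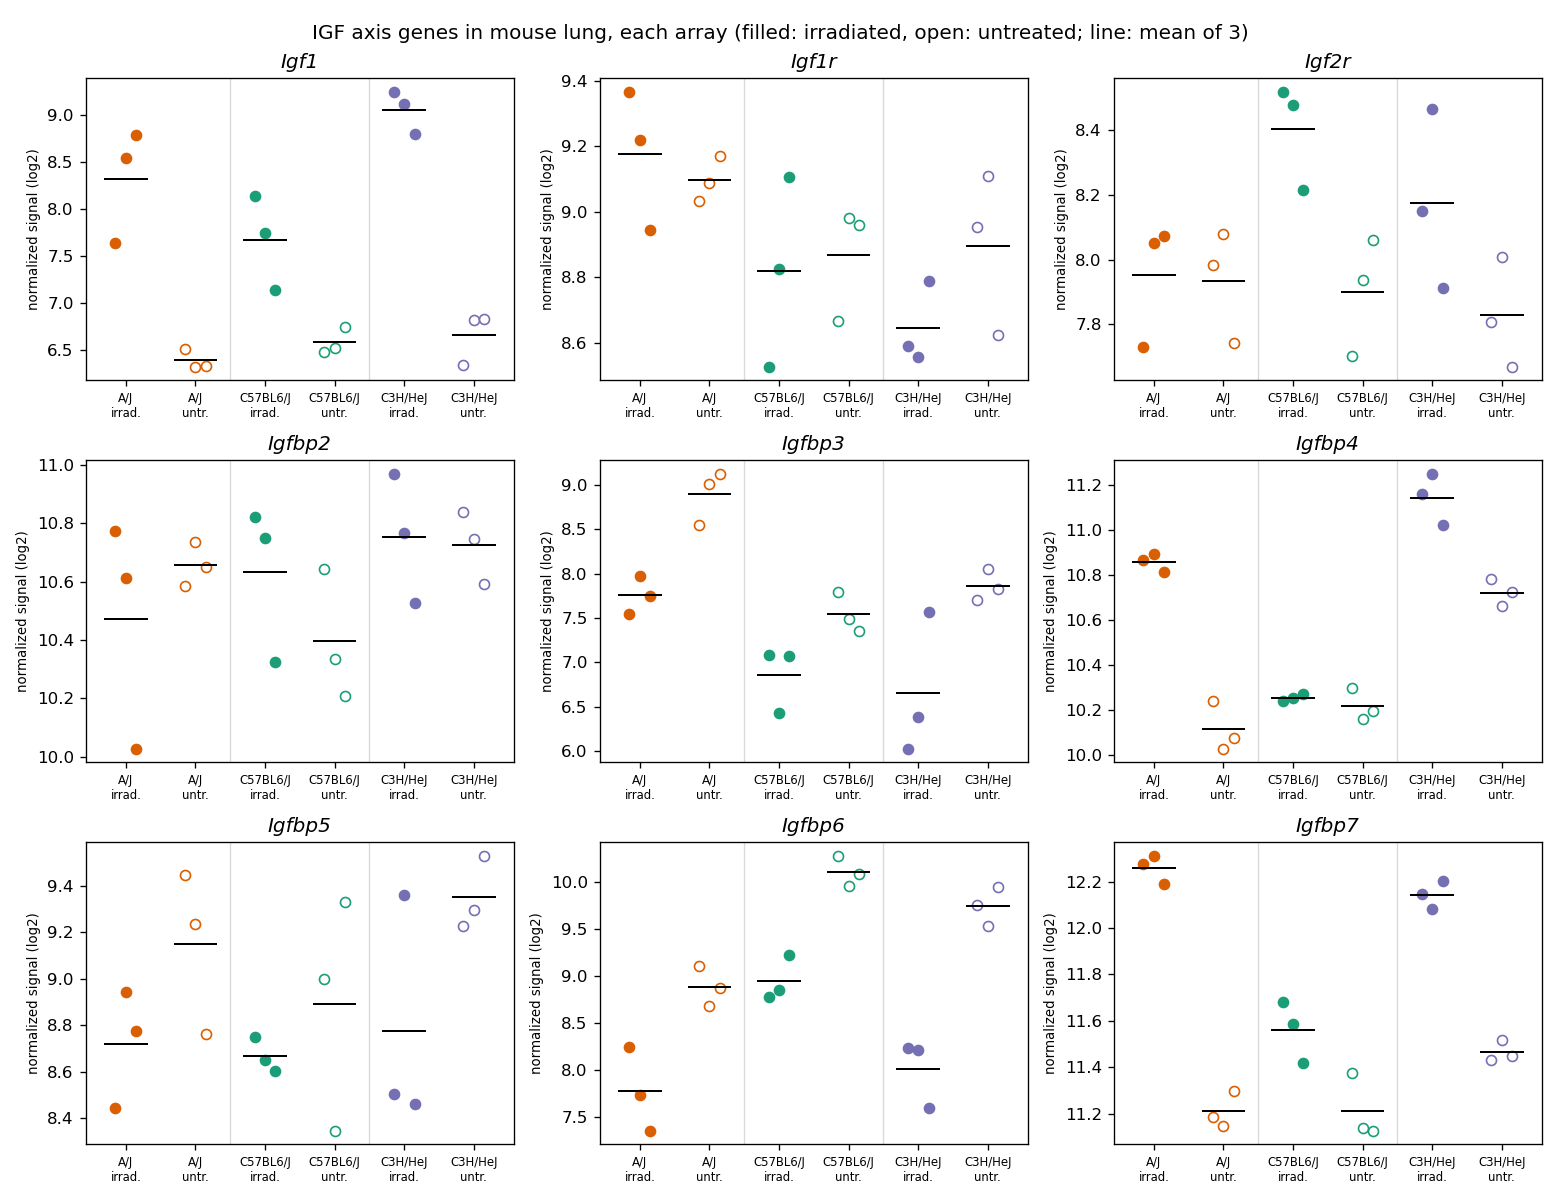
Normalized signal (log2) of the 9 IGF genes in each of the 18 arrays, with irradiated arrays as filled and untreated arrays as open points and a line at the mean of 3. Igf1, Igfbp4 and Igfbp7 lie higher, and Igfbp3 and Igfbp6 lower, in irradiated than in untreated A/J and C3H/HeJ lungs without overlap, while Igf1r and Igfbp2 overlap in every strain. Of all genes, 25.2% in A/J and 21.4% in C3H/HeJ lay higher without overlap, and 15.2% and 18.9% lower.

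The 250 bases before the RefSeq start are shown for the 5 genes called in more than 1 strain (RefSeq annotation of GRCm38.p6, 5′ to 3′ on the gene's strand), so that the genes whose RNA moved can be set side by side. Capitals mark matches to 4 motifs searched on both strands, with N as any base. They are the TATA box TATAAA, the GC box GGGCGG, the AP-1-like pattern TGANTCA and the STAT-type palindrome TTCNNNGAA.
Igf1, chr10:87860861-87861110, plus strand: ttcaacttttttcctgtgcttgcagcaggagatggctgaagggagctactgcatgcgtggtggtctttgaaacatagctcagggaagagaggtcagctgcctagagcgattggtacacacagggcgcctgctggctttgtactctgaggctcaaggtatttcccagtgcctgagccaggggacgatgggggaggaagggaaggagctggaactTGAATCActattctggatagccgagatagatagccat
Igfbp4, chr11:99040994-99041243, plus strand: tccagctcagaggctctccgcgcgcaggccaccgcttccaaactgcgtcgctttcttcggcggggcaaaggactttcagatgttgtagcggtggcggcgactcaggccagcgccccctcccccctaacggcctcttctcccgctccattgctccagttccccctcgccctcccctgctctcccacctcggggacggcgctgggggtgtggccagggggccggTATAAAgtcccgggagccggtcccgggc
Igfbp7, chr5:77408046-77408295, minus strand: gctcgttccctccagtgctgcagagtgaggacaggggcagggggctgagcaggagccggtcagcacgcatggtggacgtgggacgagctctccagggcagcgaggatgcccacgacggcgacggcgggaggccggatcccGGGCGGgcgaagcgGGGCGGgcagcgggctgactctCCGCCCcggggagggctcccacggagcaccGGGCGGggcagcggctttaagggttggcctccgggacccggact
Igfbp6, chr15:102143936-102144185, plus strand: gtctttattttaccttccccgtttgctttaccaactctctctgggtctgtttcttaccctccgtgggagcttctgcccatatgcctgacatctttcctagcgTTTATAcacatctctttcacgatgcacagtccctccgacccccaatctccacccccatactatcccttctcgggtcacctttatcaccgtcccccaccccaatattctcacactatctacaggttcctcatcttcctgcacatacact
Igfbp3, chr11:7213924-7214173, minus strand: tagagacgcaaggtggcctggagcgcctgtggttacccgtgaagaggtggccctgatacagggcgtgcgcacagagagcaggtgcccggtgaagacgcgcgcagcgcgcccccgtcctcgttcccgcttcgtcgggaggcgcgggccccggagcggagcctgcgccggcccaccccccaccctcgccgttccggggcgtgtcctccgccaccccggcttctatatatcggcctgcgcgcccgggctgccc
These motifs occur in 12.4%, 32.7%, 6.75% and 7.02% of 32851 promoter windows of the same length, in the order named. The Igf1 window, which lies inside the annotated span of the gene at a downstream start, held 1 TGANTCA match 37 to 31 bases before the start. Igfbp4 held a TATAAA match 28 to 23 bases before its start, Igfbp7 held 4 GGGCGG matches and no TATAAA, and the TATAAA of Igfbp6 lay 148 to 143 bases before the start on the opposite strand. The Igfbp3 window held none of the 4 motifs, and none of the 5 windows held TTCNNNGAA. The windows of Igfbp3 and Igfbp4 also lie within the annotated spans of their genes. GC content was 52.8% for Igf1 and 49.6% for Igfbp6, against 69.2%, 73.2% and 74.0% for Igfbp4, Igfbp3 and Igfbp7. A match describes the letters only.

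Igf1, the ligand, was higher in irradiated lungs of all 3 strains and had the highest fold of the 9 genes in each of A/J and C3H/HeJ. In irradiated A/J lungs its signal was 7.64, 8.54 and 8.79, against 6.52, 6.33 and 6.34 in untreated A/J lungs. Every irradiated array lay above every untreated one, as for 25.2% of all genes in the higher direction, with a fold of 3.81 (log2 1.93 ± 0.27 SE, adjusted p = 0.000118). In deposited units the mean was 457 ± 86.6 in irradiated and 77.6 ± 10.3 in untreated A/J lungs (SD, n = 3 each). In irradiated C3H/HeJ lungs it was 9.24, 9.12 and 8.80, against 6.35, 6.83 and 6.83 in untreated C3H/HeJ lungs, again without overlap, as for 21.4% of all genes, and with a fold of 5.23 (log2 2.39 ± 0.27, adjusted p = 2.15e-05). Without irradiated C3H/HeJ array 3 the log2 change was 2.51 ± 0.30.

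C57BL6/J showed the smallest Igf1 change of the strains. Its irradiated arrays read 8.14, 7.74 and 7.14, against 6.48, 6.53 and 6.75 in untreated C57BL6/J lungs, so the groups did not overlap there either, as for 11.7% of all genes in the higher direction. The fold was 2.13 (log2 1.09 ± 0.27, adjusted p = 0.0278). This call was lost when any of 5 arrays was left out, with adjusted p-values of 0.149 and 0.0762 without irradiated array 1 or 2 and of 0.107, 0.0611 and 0.0563 without untreated array 1, 2 or 3, and it reached 0.291 without the 3 keratin-high arrays, where 1 untreated C57BL6/J array remained and was assumed to vary like the other groups.

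Macrophage markers were called higher in A/J and C3H/HeJ, but not in C57BL6/J. Of the 7 on the list (Cd68, Mrc1, Adgre1, Chil3, Marco, Itgax and Msr1), 5 were called higher in A/J, 0 in C57BL6/J and 5 in C3H/HeJ, and 0 were called lower. Their summed normalized signal was 2155 to 5424 in irradiated and 1651 to 1891 in untreated A/J lungs, 3893 to 7871 in irradiated and 3954 to 4181 in untreated C57BL6/J lungs, and 3772 to 5136 in irradiated and 2436 to 2930 in untreated C3H/HeJ lungs. The C57BL6/J groups overlapped in this sum. The median change of the list was 1.05 in A/J, 0.69 in C57BL6/J and 1.27 in C3H/HeJ. Marco ranged from 2.98 to 8.21 over the 18 arrays and Msr1 from 3.96 to 6.98. A rise in the number of cells of a type and a rise in RNA per cell cannot be told apart in whole-lung RNA, and the part of macrophages in the Igf1 result was not tested. Over the 18 arrays the genes whose signal followed Igf1 most closely were Clec10a, a lectin of macrophages and dendritic cells (Pearson r = 0.973), Cfp, the complement protein properdin (0.971), Fscn1, an actin-bundling protein (0.970), the chemokine gene Ccl8 (0.968) and the lysosomal enzyme gene Gusb (0.966). These r describe arrays that share their strain and treatment groups and are not a test.

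Neither receptor gene was called in any strain by its brightest probe set. Igf1r, the signalling receptor, read 9.36, 9.22 and 8.94 in irradiated A/J lungs, against 9.03, 9.09 and 9.17 in untreated A/J lungs. The groups overlapped, with a log2 change of 0.08 ± 0.16 (adjusted p = 0.760), and so they did in C57BL6/J (-0.05 ± 0.16) and C3H/HeJ (-0.25 ± 0.16). Other probe sets of Igf1r differed from it in A/J. Probe set 1426565_at read 6.50, 6.70 and 6.56 in irradiated A/J lungs, against 7.63, 7.51 and 7.60 in untreated A/J lungs, a log2 change of -0.99 ± 0.12 (limma adjusted p = 3.28e-05 over all retained probe sets). Probe set 1446303_at was called lower too (-0.71 ± 0.22, adjusted p = 0.0245), while 1428967_at was not (-0.23 ± 0.14, adjusted p = 0.255). In C57BL6/J these 3 changed by between -0.03 and 0.02, and the difference of effects between A/J and C57BL6/J was called for 1426565_at alone (-1.01 ± 0.17, adjusted p = 0.00232). The A/J irradiated arrays are those with the low 5′ to 3′ actin ratio, and the part of RNA integrity in the disagreement of probe sets was not tested.

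Igf2r, the mannose-6-phosphate receptor, read 8.52, 8.48 and 8.22 in irradiated C57BL6/J lungs, against 7.70, 7.94 and 8.06 in untreated C57BL6/J lungs. These arrays did not overlap, as for 11.7% of all genes in the higher direction, but the change of 0.51 ± 0.16 was not called (adjusted p = 0.0768). In C3H/HeJ it was 0.35 ± 0.16 (adjusted p = 0.127) and in A/J 0.02 ± 0.16, with overlapping arrays in both. The second probe set of the gene, 1424111_at, was called higher in A/J, with 8.25, 7.80 and 7.87 in irradiated and 7.12, 7.28 and 7.45 in untreated lungs (0.69 ± 0.14, adjusted p = 0.00208), and in C3H/HeJ (0.43 ± 0.14, adjusted p = 0.0420). It gave 0.39 ± 0.14 in C57BL6/J (adjusted p = 0.154), so all 6 estimates of Igf2r lay above 0 and 2 of them were called.

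**Figure D2:**
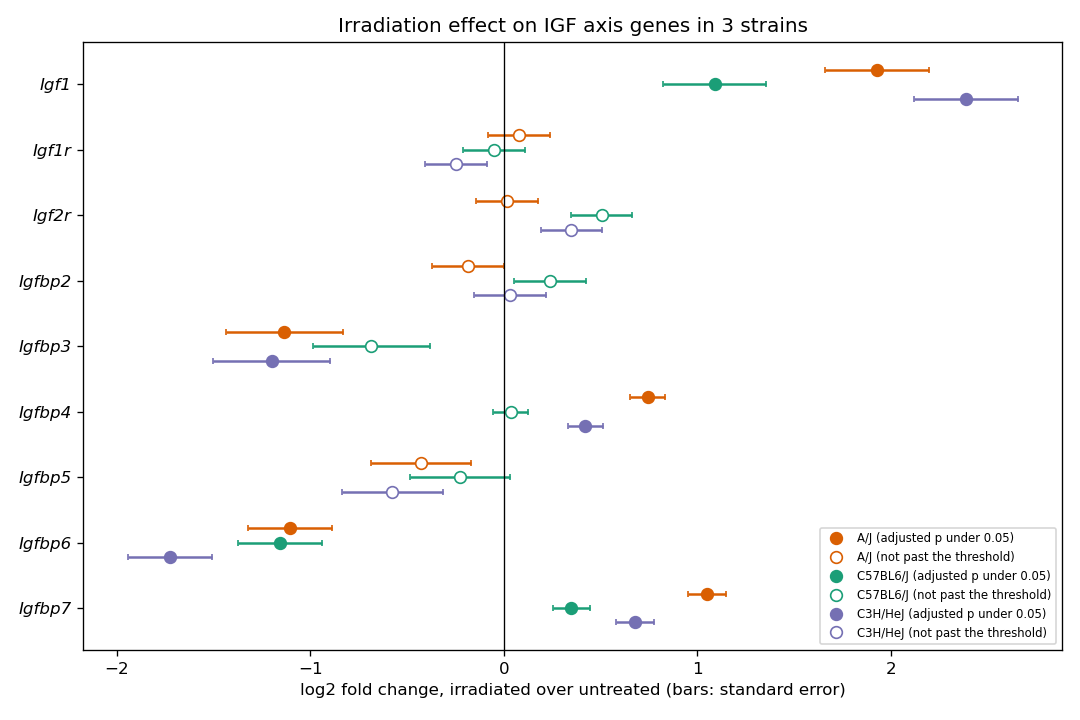
Log2 fold change, irradiated over untreated, of the 9 genes in A/J, C57BL6/J and C3H/HeJ lungs, with bars of 1 standard error and filled points where the adjusted p is under 0.05. Igf1 runs from 1.09 to 2.39, Igfbp6 from -1.73 to -1.11, and Igfbp4 is near 0 in C57BL6/J only among the 3 strains.

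Among the binding protein genes, Igfbp7 and Igfbp4 were higher in irradiated lungs. Igfbp7 was among the brightest signals of every array, at ranks 53 to 355 from the top. It read 12.28, 12.31 and 12.19 in irradiated A/J lungs, against 11.19, 11.15 and 11.30 in untreated A/J lungs, a fold of 2.07 (log2 1.05 ± 0.10, adjusted p = 3.82e-06). In irradiated C3H/HeJ lungs it read 12.15, 12.08 and 12.20, against 11.43, 11.52 and 11.45 in untreated C3H/HeJ lungs (fold 1.60, log2 0.68 ± 0.10, adjusted p = 0.000167). Neither pair of groups overlapped, as for 25.2% of all genes in the higher direction in A/J and 21.4% in C3H/HeJ, and the gap exceeded the range within any of the 4 groups. In C57BL6/J the change was smaller, with 11.68, 11.59 and 11.42 in irradiated and 11.37, 11.14 and 11.13 in untreated lungs (log2 0.35 ± 0.10, adjusted p = 0.0497). That call lay at the threshold: it was lost without irradiated array 1 or 2 (adjusted p = 0.203 and 0.117), without untreated array 2 or 3 (0.129 and 0.157) and without the 3 keratin-high arrays (0.303). Both retained Igfbp7 probe sets were called higher in A/J (1.05 and 1.46) and C3H/HeJ (0.68 and 1.18), and neither was called in C57BL6/J over all retained probe sets.

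Igfbp4, which encodes an inhibitor of IGF action that the protease PAPP-A cleaves, was higher in irradiated A/J and C3H/HeJ lungs and was not called in C57BL6/J. Its signal was 10.87, 10.89 and 10.81 in irradiated A/J lungs, against 10.24, 10.03 and 10.07 in untreated A/J lungs (fold 1.67, log2 0.74 ± 0.09, adjusted p = 3.87e-05). In irradiated C3H/HeJ lungs it was 11.16, 11.25 and 11.02, against 10.78, 10.66 and 10.72 in untreated C3H/HeJ lungs (fold 1.34, log2 0.42 ± 0.09, adjusted p = 0.00325). Irradiated C57BL6/J arrays read 10.24, 10.25 and 10.27, inside the 10.30, 10.16 and 10.20 of untreated C57BL6/J arrays, with a log2 change of 0.03 ± 0.09 (adjusted p = 0.879). Of the 6 Igfbp4 probe sets, 5 were called higher in A/J, 5 in C3H/HeJ and 0 in C57BL6/J, where they ranged from -0.16 to 0.03. Here and for the other genes, probe sets of a gene were read on the same arrays, so several calls are not independent results. No share of calls over all retained probe sets is given.

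The difference of effects between A/J and C57BL6/J was called for these 2 of the 9 genes, where it was called for 5.45% of all genes and in the direction of A/J for 2.99%. It was 0.71 ± 0.13 for Igfbp4 (adjusted p = 0.00519) and 0.70 ± 0.14 for Igfbp7 (adjusted p = 0.00911), each larger in A/J. Without the 3 keratin-high arrays the differences were 0.67 ± 0.17 and 0.65 ± 0.17, with adjusted p-values of 0.0897 and 0.0990. The difference was called for 5 of 6 Igfbp4 probe sets and 1 of 2 Igfbp7 probe sets. For Igf1 the difference between A/J and C57BL6/J was 0.84 ± 0.38 (adjusted p = 0.216), and without irradiated A/J array 1 it was 1.18 ± 0.31 and called (adjusted p = 0.0410). The Igf1 difference between C57BL6/J and C3H/HeJ was -1.30 ± 0.38 (adjusted p = 0.102), and without irradiated C57BL6/J array 1 it was -1.53 and called (adjusted p = 0.0397). None of the 9 genes was called in the difference between A/J and C3H/HeJ, where 1.06% of all genes were called, or between C57BL6/J and C3H/HeJ, where 1.60% were. At an unadjusted p under 0.05, 2 of the 9 passed in A/J minus C3H/HeJ, beside 17.9% of all genes, and 3 in C57BL6/J minus C3H/HeJ, beside 16.3%.

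Of the fibroblast markers, only collagen genes were called higher. Of the 6 (Col1a1, Col3a1, Pdgfra, Dcn, Lum and Tcf21), the collagen genes Col1a1 and Col3a1 were called higher in A/J and C3H/HeJ and Col3a1 in C57BL6/J, Tcf21 was called lower in C3H/HeJ, and the rest were not called. The effect on Col1a1 also differed between A/J and C57BL6/J (1.73 ± 0.32, adjusted p = 0.00649). The median change of the list was -0.11 in A/J, 0.19 in C57BL6/J and 0.37 in C3H/HeJ, and in A/J Pdgfra, Dcn, Lum and Tcf21 gave -0.18, -0.07, -0.15 and -0.37. The summed signal of the list was 5718 to 6196 in irradiated and 4099 to 4208 in untreated A/J lungs, 4186 to 5680 in irradiated and 4076 to 4936 in untreated C57BL6/J lungs, and 6954 to 7928 in irradiated and 4568 to 4924 in untreated C3H/HeJ lungs. Smooth muscle markers differed between A/J and C57BL6/J as well. Of 5 (Acta2, Myh11, Des, Tagln and Cnn1), Des and Tagln were called higher in A/J (0.87 ± 0.20 and 0.71 ± 0.18), Acta2 was called lower in C57BL6/J (-0.52 ± 0.14), and 0 were called in C3H/HeJ. The difference of effects between A/J and C57BL6/J was called for 3 of them, Des, Tagln and Acta2, with a median over the 5 of 1.05. Their summed signal was 2729 to 3887 in irradiated and 1873 to 2546 in untreated A/J lungs, and 1863 to 2765 in irradiated and 2954 to 3327 in untreated C57BL6/J lungs. Over 4 skeletal muscle markers (Ckm, Acta1, Mylpf and Tnnt3) the median difference between A/J and C57BL6/J was 3.29, with 0 called. Over 4 cardiac muscle markers (Myh6, Myl7, Nppa and Sln) it was 1.32, with 1 called. The mean skeletal muscle signal was 8.75, 8.82 and 8.55 in the 3 keratin-high arrays, against at most 6.83 elsewhere. The part of fibroblast or muscle cell number in the Igfbp4 and Igfbp7 results was not tested. The genes most like Igfbp4 over the 18 arrays were Col14a1, a fibril-associated collagen (r = 0.941), and the integrin gene Itga9 (0.937). Those most like Igfbp7 were Fstl1, a secreted glycoprotein (0.958), and the basement membrane collagen gene Col4a2 (0.954).

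Igfbp6, whose product prefers IGF2 to IGF1, was lower in irradiated lungs of all 3 strains, and in C3H/HeJ and C57BL6/J it had the largest fall of the 9 genes. In irradiated C3H/HeJ lungs it read 8.23, 8.21 and 7.60, against 9.75, 9.53 and 9.95 in untreated C3H/HeJ lungs, a level 3.31-fold lower (log2 -1.73 ± 0.22, adjusted p = 5.76e-05). In irradiated C57BL6/J lungs it read 8.78, 8.85 and 9.22, against 10.27, 9.96 and 10.09 in untreated C57BL6/J lungs (2.23-fold lower, log2 -1.16 ± 0.22, adjusted p = 0.00673). In irradiated A/J lungs it read 8.25, 7.73 and 7.36, against 9.11, 8.68 and 8.87 in untreated A/J lungs (2.15-fold lower, log2 -1.11 ± 0.22, adjusted p = 0.00190). No strain's groups overlapped, as for 18.9% of all genes in the lower direction in C3H/HeJ, 12.5% in C57BL6/J and 15.2% in A/J. Without the 3 keratin-high arrays the log2 change was -1.01 ± 0.29 in C57BL6/J (adjusted p = 0.226) and -0.89 ± 0.23 in A/J (adjusted p = 0.0158). Igfbp6 has 1 probe set on the array, so no second one bears on it. Bag5, a co-chaperone gene (r = 0.941), and Grap, an adaptor gene (0.936), followed it most closely over the 18 arrays.

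Igfbp3, the main carrier of IGFs in blood, was lower in irradiated A/J and C3H/HeJ lungs. In irradiated A/J lungs it read 7.54, 7.97 and 7.75, against 8.55, 9.005 and 9.12 in untreated A/J lungs (2.20-fold lower, log2 -1.13 ± 0.30, adjusted p = 0.0125). In irradiated C3H/HeJ lungs it read 6.03, 6.38 and 7.57, against 7.70, 8.06 and 7.83 in untreated C3H/HeJ lungs (2.30-fold lower, log2 -1.201 ± 0.30, adjusted p = 0.00948). The irradiated C3H/HeJ arrays were far apart, and the high one is array 3, which lies between the strains at the strain-separating probe sets. Without it the log2 change was -1.65 ± 0.23 (adjusted p = 0.000249), and without irradiated array 1 it was -0.88 (adjusted p = 0.0523). In C57BL6/J the arrays read 7.09, 6.43 and 7.08 in irradiated and 7.80, 7.49 and 7.36 in untreated lungs, without overlap, as for 12.5% of all genes in the lower direction, and the change of -0.69 ± 0.30 was not called (adjusted p = 0.215). Both Igfbp3 probe sets were called lower in A/J and in C3H/HeJ and neither in C57BL6/J. The closest transcripts over the 18 arrays were D16Ertd472e (r = 0.911) and Gm19990 (0.906).

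**Figure D3:**
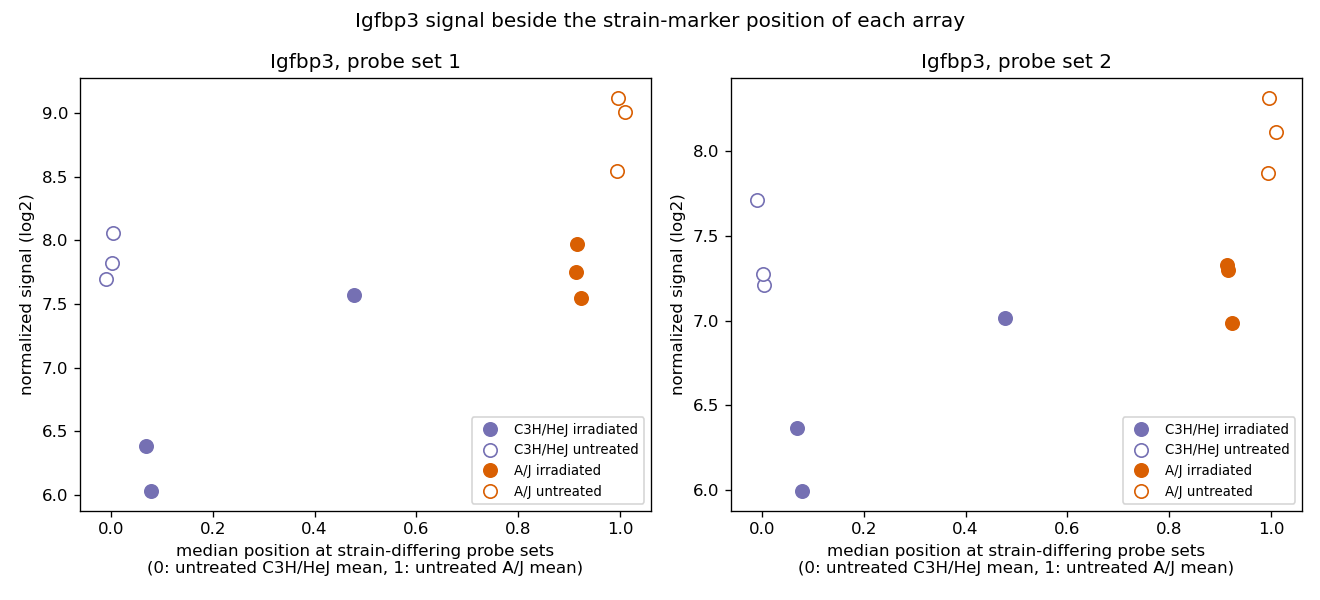
Normalized Igfbp3 signal (log2) of both probe sets against the median position of each array on the axis from untreated C3H/HeJ (0) to untreated A/J (1) over 104 strain-separating probe sets. Irradiated C3H/HeJ array 3, at 0.478 with Igfbp3 at 7.57 and 7.02, falls inside the signal range of the irradiated A/J arrays for each probe set (7.54 to 7.97 and 6.98 to 7.33), while the other irradiated C3H/HeJ arrays read 6.03 and 6.38 for the first probe set. For the first probe set it also falls inside the range of untreated C57BL6/J arrays (7.36 to 7.80), which are not drawn.

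Some endothelial markers were called lower. Of the 6 (Pecam1, Cdh5, Tek, Kdr, Cldn5 and Emcn), 2 were called lower and 1 higher in A/J, 1 lower in C57BL6/J and 3 lower in C3H/HeJ. The median change over the 6 was -0.26, -0.25 and -0.58 in A/J, C57BL6/J and C3H/HeJ. Tek, the angiopoietin receptor gene and the 1 call in C57BL6/J, was called lower in all 3 strains (-2.14 ± 0.18, -1.68 ± 0.18 and -2.74 ± 0.18 in A/J, C57BL6/J and C3H/HeJ), well below these medians. The summed signal of the list was 3212 to 4932 in irradiated and 5208 to 5837 in untreated A/J lungs, 2202 to 3827 in irradiated and 3766 to 4014 in untreated C57BL6/J lungs, and 2970 to 3337 in irradiated and 5301 to 6133 in untreated C3H/HeJ lungs. Of 5 mesothelial markers, Upk3b alone was called, lower in C3H/HeJ (-1.26 ± 0.43), with sums of 1701 to 2301 in irradiated and 1826 to 2188 in untreated C3H/HeJ lungs. Wt1 ranged from 3.89 to 5.12 over all arrays. The part of endothelial or mesothelial cells in the Igfbp3 and Igfbp6 results was not tested.

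Igfbp5 and Igfbp2 were not called in any strain. Igfbp5, a binding protein that attaches to matrix, read 8.50, 9.36 and 8.46 in irradiated C3H/HeJ lungs, against 9.23, 9.30 and 9.53 in untreated C3H/HeJ lungs, with overlap through irradiated array 2 (log2 -0.58 ± 0.26, adjusted p = 0.122). Without that array the change was -0.87 and called (adjusted p = 0.0243). It was -0.43 ± 0.26 in A/J (adjusted p = 0.251) and -0.23 ± 0.26 in C57BL6/J. The second Igfbp5 probe set, 1422313_a_at, was called lower in A/J, with 4.37, 4.59 and 5.19 in irradiated and 6.33, 6.13 and 5.27 in untreated lungs (-1.19 ± 0.30, adjusted p = 0.00920). The mesothelial gene Upk3b (r = 0.873) and the neuronal membrane gene Gpm6a (0.847) were most like Igfbp5. Igfbp2, bright in every array at ranks 412 to 982, changed by -0.19 ± 0.19, 0.24 ± 0.19 and 0.03 ± 0.19 in A/J, C57BL6/J and C3H/HeJ, with overlapping arrays throughout. The genes most like Igfbp2 were Arid3a (r = 0.789) and Gpr39 (0.751), those most like Igf1r were Sned1 (0.881) and Trak1 (0.852), and those most like Igf2r were Wipf1 (0.785) and Herc6 (0.778).

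**Figure D4:**
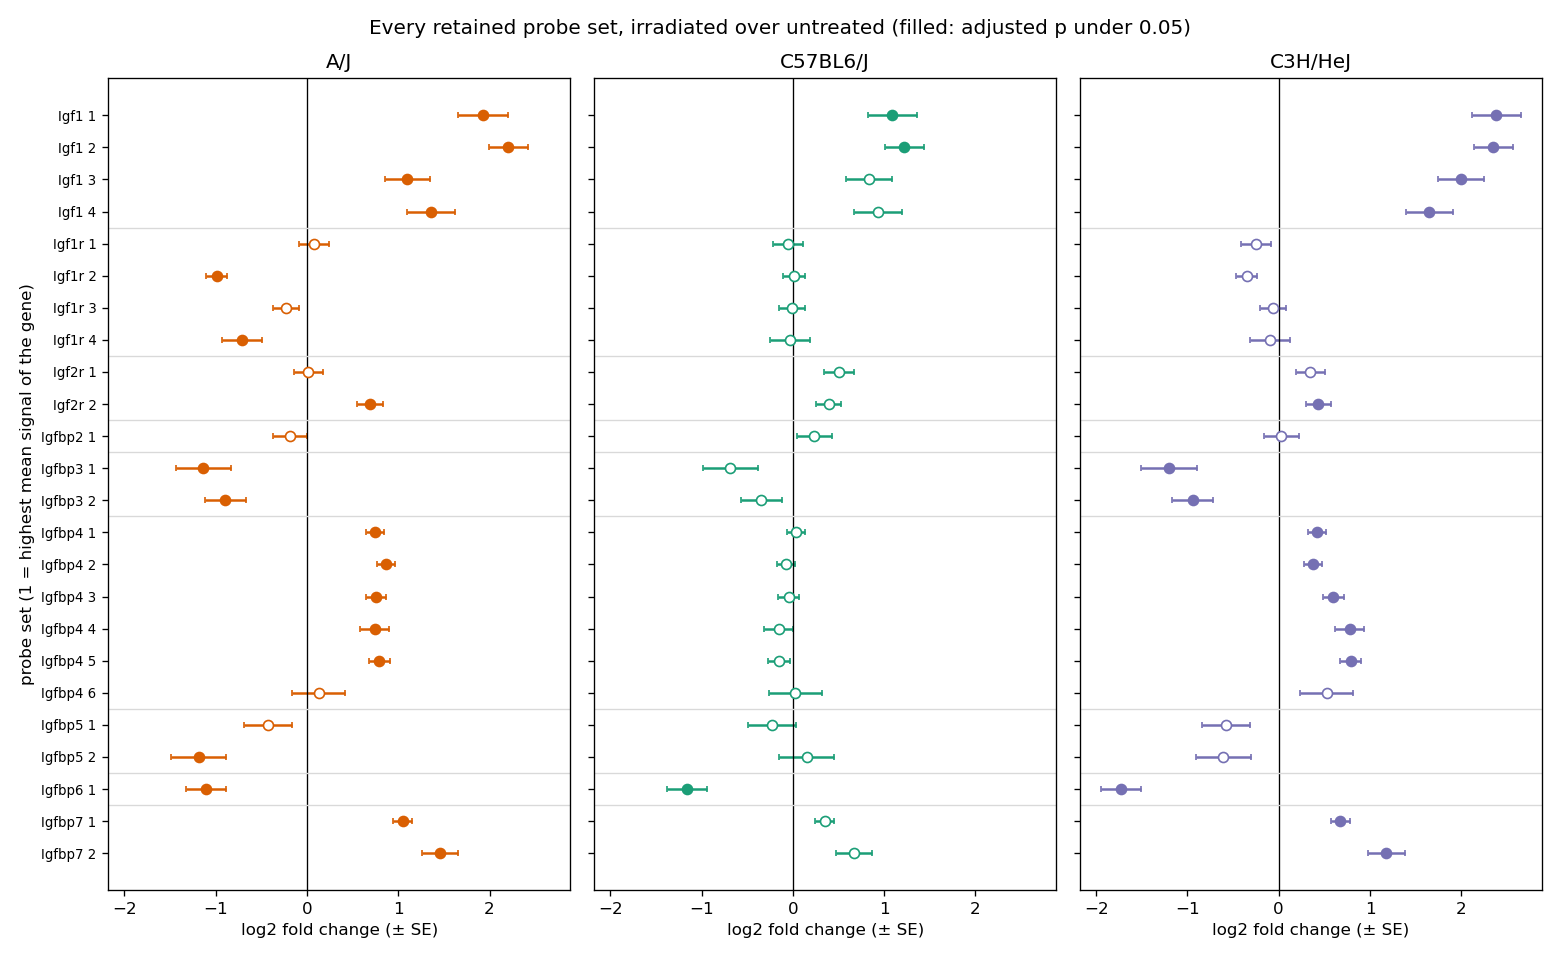
Log2 fold change, irradiated over untreated, with its standard error for each of the 24 retained probe sets in A/J, C57BL6/J and C3H/HeJ lungs, ordered within a gene by mean signal, with filled points where the adjusted p over all retained probe sets is under 0.05. All 4 Igf1 probe sets lie between 1.10 and 2.21 in A/J and between 1.65 and 2.39 in C3H/HeJ, while the Igf1r probe sets spread from -0.99 to 0.08 in A/J.

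The 4 Igf1 probe sets were all called higher in A/J and in C3H/HeJ, and 2 of 4 in C57BL6/J, where they ranged from 0.84 to 1.22. Scaling changed the level against which a change is read. Without scaling, the median gene shifted by 0.557 in A/J, by 0.0578 in C57BL6/J and by 0.614 in C3H/HeJ. The unscaled log2 changes of Igf1, Igfbp7, Igfbp4, Igfbp6 and Igfbp3 were 2.45, 1.502, 1.31, -0.51 and -0.56 in A/J. In C3H/HeJ they were 3.06, 1.2002, 1.12, -1.002 and -0.55. Relative to the median gene of each strain, in the order A/J, C57BL6/J and C3H/HeJ, Igf1 changed by 1.89, 1.08 and 2.45. On the same footing Igfbp7 changed by 0.94, 0.37 and 0.59 and Igfbp4 by 0.75, 0.07 and 0.51. Igfbp6 changed by -1.07, -1.16 and -1.62 and Igfbp3 by -1.12, -0.65 and -1.16. Subtracting the median shift is itself a scaling, so these relative values do not test the choice of scaling. The split of called genes between higher and lower moved with the scaling. It was 2312 higher and 144 lower in A/J and 3195 and 71 in C3H/HeJ without scaling. After quantile normalization it was 1875 and 1111 in A/J and 1594 and 1321 in C3H/HeJ. After centring on the median it was 4162 and 536 in A/J and 3015 and 461 in C3H/HeJ. Of the 9 genes, 3 were then called higher and 0 lower in A/J without scaling, and 4 higher, with Igf2r among them, and 1 lower in C3H/HeJ.

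Untreated lungs of the strains differed at 3 of the binding protein genes. Untreated C57BL6/J lungs had less Igfbp3 than untreated A/J lungs (-1.34 ± 0.30, adjusted p = 0.00846) and more Igfbp6 (1.22 ± 0.22, adjusted p = 0.00162), 2 calls among 9 where 10.4% of all genes were called, 5.93% higher and 4.46% lower. Without the 3 keratin-high arrays these differences were -1.40 ± 0.46 and 1.07 ± 0.29, with adjusted p-values of 0.147 and 0.0668. Igfbp4 was the one gene called between untreated C57BL6/J and untreated C3H/HeJ lungs, lower in C57BL6/J (-0.50 ± 0.09, adjusted p = 0.00183), where 10.8% of all genes were called, 6.01% higher and 4.82% lower. Untreated C3H/HeJ lungs had more Igfbp4 (0.61 ± 0.09, adjusted p = 0.000760) and more Igfbp6 (0.86 ± 0.22, adjusted p = 0.0355) than untreated A/J lungs, where 4.50% of all genes were called (2.34% higher, 2.16% lower). The Igfbp6 call was lost without untreated A/J array 2 or 3 (adjusted p = 0.141 and 0.101) or untreated C3H/HeJ array 1 or 3 (0.0984 and 0.125). Igfbp3 was lower in untreated C3H/HeJ than in untreated A/J lungs by -1.03 ± 0.30 on the log2 scale, which was not called (adjusted p = 0.0685). By its brightest probe set Igf1 showed no called difference between untreated strains, at 6.67 ± 0.28, 6.59 ± 0.14 and 6.39 ± 0.11 in C3H/HeJ, C57BL6/J and A/J (SD, n = 3 each), and its arrays overlapped between each pair. Probe set 1434413_at of Igf1 was called higher in untreated C3H/HeJ lungs, at 6.65, 6.48 and 6.56, than in untreated A/J lungs, at 5.98, 5.61 and 5.64 (0.82 ± 0.21, limma adjusted p = 0.0374 over all retained probe sets), and the other 3 were not called.

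In order of mean level, Igf1 ran from irradiated C3H/HeJ (9.05 ± 0.23) through irradiated A/J (8.32 ± 0.61) and irradiated C57BL6/J (7.68 ± 0.50) to the untreated groups (SD, n = 3 each). Irradiated A/J and irradiated C57BL6/J arrays overlapped, and irradiated C3H/HeJ lay just above irradiated A/J, with 8.80 as its lowest array against 8.79 as the highest of A/J. For Igfbp6 the order ran from untreated C57BL6/J (10.11 ± 0.16) and untreated C3H/HeJ (9.74 ± 0.21) through irradiated C57BL6/J (8.95 ± 0.24) and untreated A/J (8.89 ± 0.22), which overlapped each other, to irradiated C3H/HeJ (8.02 ± 0.36) and irradiated A/J (7.78 ± 0.45), which overlapped too. For Igfbp3 untreated A/J stood highest (8.89 ± 0.30), and untreated C3H/HeJ (7.86 ± 0.18), irradiated A/J (7.75 ± 0.21) and untreated C57BL6/J (7.55 ± 0.23) overlapped below it.

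Around the 9 genes, 41 of 51 genes on 6 lists of the pathway were measured. Of these, 12 were called higher and 2 lower in A/J, 1 higher and 0 lower in C57BL6/J, and 8 higher and 5 lower in C3H/HeJ, where the shares over all genes were 15.1% and 8.95%, 2.99% and 2.36%, and 12.8% and 10.6%. The 1 call of 41 in C57BL6/J is near the share over all genes. Among proteases that cleave IGF-binding proteins and their inhibitors, 6 of 7 were measured. Pappa2, a protease that cleaves IGFBP3 and IGFBP5, was called higher in all 3 strains (1.32 ± 0.23, adjusted p = 0.000687 in A/J, 0.88 ± 0.23, adjusted p = 0.0365 in C57BL6/J and 1.60 ± 0.23, adjusted p = 0.000141 in C3H/HeJ). Adam12, another such protease, was called higher in A/J (1.18 ± 0.25), as was Stc2, which encodes an inhibitor of PAPP-A (0.91 ± 0.16), and Adam28 was called higher in C3H/HeJ (1.205 ± 0.25). None of the list was called lower, and its median change was 0.64, 0.30 and 0.53 in A/J, C57BL6/J and C3H/HeJ.

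Of 8 genes for secreted proteins with an IGFBP-like domain, all measured, 4 were called higher in A/J and 4 in C3H/HeJ, and 0 in C57BL6/J, with medians of 0.66, 0.75 and -0.15. Ccn2, the connective tissue growth factor gene, was called higher in A/J (0.95 ± 0.14) and C3H/HeJ (1.26 ± 0.14), as were Ccn4 (1.31 ± 0.22 and 1.27 ± 0.22) and Ccn5 (1.36 ± 0.23 and 0.94 ± 0.23). Ccn3 was called higher in A/J (1.13 ± 0.36) and Ccn1 in C3H/HeJ (0.82 ± 0.22). Of 6 receptor and adaptor genes measured, Grb10, an adaptor that restrains insulin and IGF1 receptors, was called higher in A/J (0.96 ± 0.14) and C3H/HeJ (0.53 ± 0.14), its relative Grb14 was called lower in both (-0.50 ± 0.11 and -0.49 ± 0.11), and Irs1, a docking protein of the receptor, was called lower in C3H/HeJ (-1.06 ± 0.22). The insulin receptor gene Insr was called in no strain.

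Of 6 genes of the growth hormone axis, which drives Igf1 in liver, the receptor gene Ghr (0.42 ± 0.13) and Socs2 (0.44 ± 0.13) were called higher in A/J and Jak2 (0.49 ± 0.12) in C3H/HeJ. Of 14 genes of PI3 kinase, AKT and FOXO signalling measured out of 17, Foxo3 (0.94 ± 0.19) and Pik3ca (0.60 ± 0.13) were called higher and Gsk3b lower (-1.08 ± 0.20) in A/J, Foxo1 (-0.44 ± 0.10), Foxo4 (-0.63 ± 0.18) and Pik3r1 (-0.56 ± 0.17) were called lower in C3H/HeJ, and none was called in C57BL6/J. The medians of this list were 0.02, 0.01 and -0.07 in A/J, C57BL6/J and C3H/HeJ. Igf2, the other ligand and the 1 measured gene of 5 further ligands and carriers, was not called (0.09 ± 0.16 in A/J, 0.40 ± 0.16 in C57BL6/J and -0.36 ± 0.16 in C3H/HeJ).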

How the data were processed

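RNA of 18 lung samples was hybridized to single-colour oligonucleotide arrays, 3 in each of 6 groups, and titles and strain labels set the groups. The deposited table holds linear intensities of 45101 probe sets, which the authors made with MAS5, per the submitters' processing notes. Its scaling target is not given in the sources used here. The log2 values used here were computed from the deposited intensities as log2(signal + 7), without the 64 control probe sets, and quantile-normalized. The number of arrays limits the precision.

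A probe set was kept if at least 3 arrays had it over the median of all values (25746 kept). Gene names came from the platform annotation, in which 34958 probe sets name 1 gene, 932 several, and 9211 probe sets of the table have no row. A gene was represented by its kept probe set with the highest mean, giving 12412 genes. A model of 6 group means with 12 residual degrees of freedom was fitted to all 18 arrays (limma 3.58.1, R 4.3.3). Two-sided p-values were adjusted by Benjamini-Hochberg over all genes, or over all kept probe sets where single probe sets are named, and a threshold of 0.05. Errors of changes are standard errors. Alternatives were no scaling, median centring, pseudocounts of 1 and 32, no filter or a stricter one, the mean of a gene's probe sets, only the groups compared, the replicate number as a block, array weights, an intensity trend, and leaving out arrays. On simulated data with 12412 genes, 50 genes each were changed by 0.5, 1, 1.5 and 2 on the log2 scale in A/J. Of these, 36%, 74%, 100% and 100% were called, with 11 false calls. In the measured A/J contrast 24.1% of all genes were called, so these rates need not hold there.

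All 9 genes are named whatever their result, with the 5 genes most correlated with Igf1 and the 2 most correlated with each other gene over 18 arrays. Genes of the fixed pathway lists are named where called within a strain. Of the marker lists, only some called genes are named. Among lists not described above by their calls within a strain, 1 of 6 lung epithelium markers was called lower in A/J. Of 4 cardiac muscle markers, 2 were called lower in C57BL6/J and 2 in C3H/HeJ, and 1 of 4 squamous markers was called lower in C57BL6/J. The genes, lists and tests were chosen with earlier results of these data known. Motifs were searched in the RefSeq promoter windows of GRCm38.p6.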

Additional observations from a re-analysis of the deposited data

Results flagged for a closer look

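Among the 9 genes, the effect of irradiation differed between 2 strains for a pair of binding protein genes by the test of the difference itself. For Igfbp4 the log2 effect in A/J exceeded that in C57BL6/J by 0.708 ± 0.127 (SE, limma adjusted p = 0.00519), and 22 of 24 alternatives kept the call. For Igfbp7 the same difference was 0.699 ± 0.138 (adjusted p = 0.00911), and 22 of 24 alternatives kept it. For both genes the 2 that did not were no scaling and leaving out the 3 keratin-high arrays. The latter left 1 untreated C57BL6/J array and gave differences of 0.67 for Igfbp4 and 0.65 for Igfbp7. Many of the 24 alternatives leave out a single array. The 5′ over 3′ actin ratio was 0.413 to 0.551 in irradiated A/J arrays and 0.712 to 0.749 in irradiated C57BL6/J arrays, and the Gapdh ratio of irradiated A/J array 1 was 0.294, against 0.876 to 1.295 in the other 17 arrays. Without that array the differences were 0.707 for Igfbp4 and 0.697 for Igfbp7. Muscle markers differed in the same contrast. Of smooth, cardiac and skeletal muscle markers, 3 of 5, 1 of 4 and 0 of 4 were called, with medians of 1.05, 1.32 and 3.29. Irradiated mice of the strains also differed in age and in time since exposure. The part of RNA quality, muscle, age and time in the differences was not tested.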

How the results depend on the processing

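The calls of Igf1, Igfbp4 and Igfbp7 in A/J and C3H/HeJ, and of Igfbp6 in C3H/HeJ, held under all 18 alternatives, with log2 changes of 1.65 to 2.45, 0.67 to 1.31 and 1.02 to 1.502 for the first 3 genes in A/J, and 2.10 to 3.06, 0.37 to 1.12, 0.65 to 1.2002 and -1.84 to -1.002 in C3H/HeJ. Igfbp3 in A/J was lost without scaling (adjusted p = 0.203) and after median centring (0.0625), Igfbp6 in A/J without scaling (0.239), and Igfbp3 in C3H/HeJ without scaling (0.196) and with only the groups compared (0.0548). In C57BL6/J the calls of Igf1 and Igfbp7 each held under 8 of 18 alternatives and that of Igfbp6 under 16. Of the 9 genes, 5 were called in A/J, and 3 without scaling and 8 with the mean of a gene's probe sets. No count over all genes is given for that mean, so the 8 has no share beside it. In C57BL6/J the counts over all genes, given in the next paragraph, fell too under the settings named next, apart from single arrays left out. In C57BL6/J 3 were called, and 0 without scaling or without the 3 keratin-high arrays, and 1 with no filter, with only the groups compared or with the replicate block (1 to 3 with 1 array left out). For differences of effects, the 2 calls between A/J and C57BL6/J became 0 without scaling and without the 3 arrays, and the 0 calls between C57BL6/J and C3H/HeJ became 1, Igf1, without scaling, after median centring, with the mean of probe sets and with array weights (0 to 1 with 1 array left out). Between untreated strains, the calls of Igfbp3 and Igfbp6 in C57BL6/J minus A/J each held under 17 of 18 alternatives. They did not hold without the 3 arrays, which left 1 untreated C57BL6/J array. The 1 call of C57BL6/J minus C3H/HeJ became 0 without scaling and after median centring. For C3H/HeJ minus A/J, a count of 2 became 1 without scaling, after median centring and with no filter. It was 1 to 2 with 1 array left out. The gene called need not be 1 of those 2. Igfbp4 held its call there under 17 of 18 alternatives and Igfbp6 under 11, while Igfbp3, not called in the fit reported, was called under 4. The cause of these changes was not tested.

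Over all genes, 2986 were called in A/J and 4698 after median centring. In C57BL6/J 664 were called, and 220 without scaling, 342 after median centring, 408 with no filter, 79 with only the groups compared, 324 with the replicate block and 30 without the 3 arrays (216 to 729 with 1 array left out). All 21 changes of sign were of effects that were not called in the fit reported. In A/J, Igf1r turned to -0.46 with the mean of probe sets, which was called (adjusted p = 0.0164), Igf2r to -0.045 without the 3 arrays, Igfbp2 to 0.36 without scaling, 0.13 after median centring and 0.0365 without the 3 arrays, and Igfbp5 to 0.16 without scaling. In C57BL6/J, Igf1r turned to 0.0222 without scaling, Igfbp4 to -0.0614 with the mean of probe sets and Igfbp5 to 0.32 without the 3 arrays. In C3H/HeJ, Igf1r turned to 0.48 without scaling and 0.10 after median centring, and Igfbp5 to 0.15 without scaling. With 1 array left out, Igf1r ran from -0.0158 to 0.20 in A/J and from -0.19 to 0.0968 in C57BL6/J, Igf2r from -0.0814 to 0.13 in A/J, and Igfbp2 from -0.34 to 0.0361 in A/J and from -0.0769 to 0.14 in C3H/HeJ. Same-numbered arrays of the 2 groups of a strain did not deviate together (9 pairs, correlations of -0.084 to 0.096, 0 over 0.1). These correlations over all genes cannot exclude a pairing of animals, and the titles give only a number. The dim probe sets of Igf1r and Igfbp7 were left out, so no change is given for them.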
